A study of Mus musculus with 6 samples.

Results

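Fatty acid oxidation in mouse liver was followed through 35 genes, listed by name, that cover uptake and binding of fatty acids, the carnitine shuttle, mitochondrial and peroxisomal beta-oxidation, ketone body formation and several genes that respond to the fatty acid receptor PPARalpha. Each gene was read from the probe set with the highest mean among those annotated to that gene alone, and 34 of the 35 had one, out of 18193 genes on the array. Acsl1, a long-chain acyl-CoA synthetase, had none and was not analysed here. The arrays compare conditional Keap1 knockout livers, Alb-Cre:Keap1(flox/-), with genetic control livers, Alb-Cre:Keap1(flox/+), at 3 mice per group. In the knockouts a floxed Keap1 allele lies opposite a null allele, and in the controls opposite a wild-type allele. Both groups carry Cre driven by the albumin promoter, which is active in hepatocytes, so a control hepatocyte that has lost the floxed allele keeps 1 intact copy, while the null allele of the knockouts is present in every cell. All mice were males of 9 weeks and had been given the same vehicle, a mix of 10% DMSO, 10% Cremophor-EL and 80% PBS. The comparison asks how loss of KEAP1, which targets the transcription factor NRF2 for degradation, bears on hepatic gene expression.

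Fatty acids enter the hepatocyte with the help of membrane proteins such as CD36, are bound in the cytosol by FABP1 and are activated to acyl-CoA. Long chains cross into mitochondria as carnitine esters and are shortened there by dehydrogenases, hydratases and thiolases, which feed electrons to the respiratory chain. Very long and branched chains are shortened first in peroxisomes, and in fasting much of the acetyl-CoA leaves the liver as ketone bodies. PPARalpha, a nuclear receptor that binds fatty acids, raises the transcription of many of these genes during fasting.

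Signals are the deposited linear intensities. A difference is the mean of log2(signal + 16) in the knockouts minus that in the controls, and a gene was called where its limma p, adjusted by Benjamini-Hochberg over all genes tested, was under 0.05. Genes said to lie above or below the controls do so by this difference of means. Keap1 was lower in the knockouts, at signals of 326.2, 151.4 and 213.6 against 785.9, 843.1 and 699.8 in the controls, and this fall passed the test (log2 difference -1.74, standard error 0.24, limma adjusted p = 0.0118). The other of its 2 probe sets gave 336.3, 445.8 and 206.3 against 476.7, 564.2 and 540.9, lower without overlap but not past the threshold (-0.71, limma adjusted p = 0.223 over all probe sets). Where either probe set sits relative to the floxed exons is not stated in the labels. Correlations of log2 signal between arrays, over probe sets, lay between 0.967 and 0.973 within groups and between 0.956 and 0.962 across them. The hepatocyte markers albumin, transthyretin and 8 others were all measured, with a summed signal of 228406 to 242635 in the knockouts and 194954 to 231501 in the controls. Of the 10 hepatocyte markers 9 lay above the controls and 0 passed (2 had an unadjusted limma p under 0.05). Fat tissue markers were near the bottom of the scale, with a summed signal of 33.6 to 68.1 in the knockouts and 22.3 to 75.9 in the controls for the 2 of 4 measured, Adipoq and Lep. The 4 muscle markers summed to 250.4 to 340.4 and 217.9 to 362.1. In whole liver a change in the share of a cell type and a change in RNA per cell cannot be told apart.

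Across the pathway, 1 member rose and 0 fell. Cd36, a fatty acid and lipoprotein receptor of the cell membrane, rose 5.71-fold. The mitochondrial matrix and peroxisomal members differed from the controls by at most 0.39 on the log2 scale in their chosen probe sets. Some readings outside these were larger, such as -0.57 for a dimmer probe set of Decr1 and 0.60 for Acox2, a peroxisomal oxidase not among the members. The single call among 34 members compares with 1.98% of the 13027 genes tested that were called in either direction, 1.04% higher and 0.944% lower. At an unadjusted limma p under 0.05 there were 7 members, 6 of them lower, against 15.2% of all genes (7.76% lower). The groups did not overlap in 6 members, 5 lower and 1 higher, against 21.3% of all genes (10.9% lower and 10.3% higher). Most members were bright, with 27 of 34 in the brightest 10% of genes tested, so all genes are not a background of like signal. Of the 34 members 26 lay below the controls, with a median log2 difference of -0.10, beside 52.8% of all genes and a median of -0.02. That count depended on how the arrays were scaled, at 21 of 34 after median centring, 32 after quantile normalization and 33 under scaling on the spiked hybridisation controls, which moved the median of all genes to -0.21 and that of the members to -0.29. Set against the median of all genes in each setting, 24 of 34 members lay lower in the main fit. Median centring shifts all genes of an array equally, so it cannot change this second count. The second count was 25 under hybridisation-control scaling, which also scales each array as a whole. It was 32 after quantile normalization and 20 to 27 without 1 array. The members' median was -0.16 without knockout 4 and -0.05 without control 2.

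**Figure D1:**
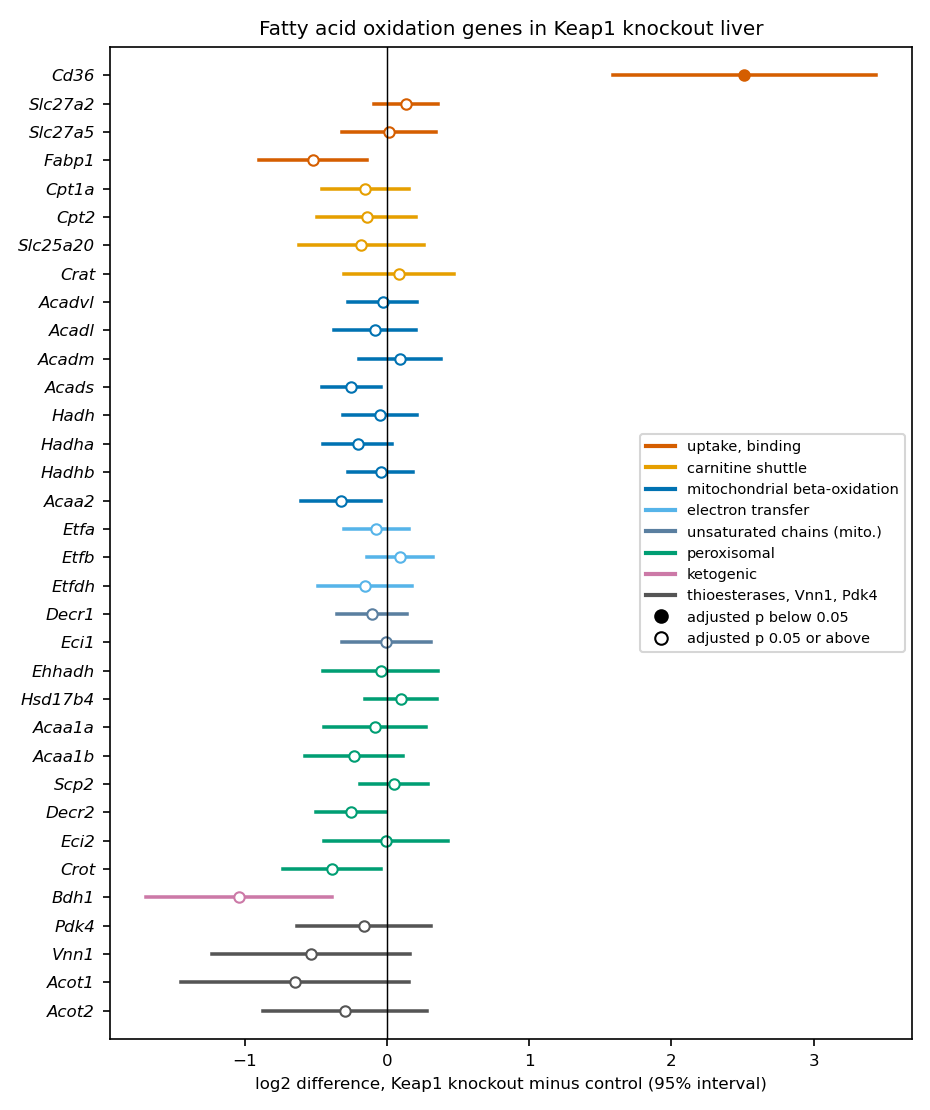
Log2 difference between Keap1 knockout and control livers for the 34 members (points) with its 95% interval from limma (bars), by role, with 3 mice per group and points filled where the adjusted p was below 0.05. Cd36 stands alone at 2.51, Bdh1 lies at -1.04 with an interval below 0, and most of the enzymes lie close to 0.

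The 95% interval of the log2 difference lay wholly between -0.5 and 0.5, which is less than 1.41-fold either way, for 22 of 34 members. This held for 12 of the 13 mitochondrial matrix enzymes and 5 of the 8 peroxisomal members. It lay within 2-fold for 30 of 34. For Cd36, Bdh1, Vnn1 and Acot1 the interval reached beyond 2-fold. Further probe sets were tested for some members, 25 in all, and 10 of these had the opposite sign to the one chosen for the gene.

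Among the genes of uptake and binding, Cd36 moved most. Its signal was 5371.0, 6577.1 and 4151.4 in knockouts 3, 4 and 5, and 614.3, 1986.8 and 615.1 in controls 1, 2 and 3. The lowest knockout had a signal above the highest control, and control 2 stood apart from the other controls. The mean was 5367 ± 1213 against 1072 ± 792 (SD, n = 3 each), and the log2 means differed by 2.51 (95% interval 1.59 to 3.44, limma adjusted p = 0.0204). The 2 further probe sets were higher by 2.42 and 1.75 (limma adjusted p = 0.0202 and 0.0399 over all probe sets), so the probe sets measured the same direction at different sizes. The difference stayed between 2.23 and 3.07 without any 1 array. The call did not: the adjusted p was 0.0714, 0.0619 and 0.0531 without knockouts 3, 4 and 5, and 0.0641 and 0.0600 without controls 1 and 3, while it was 0.000266 without control 2. Without the variance trend in the fit it was 0.0830.

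CD36 is also made by macrophages and endothelial cells. Of the 8 Kupffer cell and macrophage markers 6 lay above the controls and 0 passed (2 at an unadjusted limma p under 0.05), with a median log2 difference of 0.24. The markers ranged from -0.06 for Cd68 to 1.40 for Marco (limma adjusted p = 0.915 and 0.111). Their summed signal was 13251 to 17400 in the knockouts and 9455 to 16631 in the controls. Of the 6 endothelial markers 5 lay below the controls and 0 passed (0 at an unadjusted limma p under 0.05), at 4938 to 5590 against 5265 to 5675 in sum. The part of these cells in the Cd36 difference was not tested.

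Fabp1 encodes the abundant fatty acid binding protein of liver cytosol. Its brighter probe set gave 25016, 32791.4 and 19980.8 in the knockouts and 38048.4, 37656.5 and 33929.4 in the controls. The groups did not overlap, although knockout 4 came close to control 3. The log2 difference of -0.52 (standard error 0.17) did not pass (limma adjusted p = 0.179). The other probe set pointed the opposite way, with 29096, 36302.9 and 24181.6 in the knockouts against 24572, 27420.8 and 23838 in the controls (difference 0.22, limma adjusted p = 0.520 over all probe sets). The mean over both was -0.15. The direction of Fabp1 is therefore not settled by these arrays. This holds even though the chosen probe set passed after quantile normalization (-0.70, adjusted p = 0.0320) and under hybridisation-control scaling (-0.72, adjusted p = 0.0472). Slc27a2 and Slc27a5, which encode acyl-CoA synthetases that handle very long chain fatty acids and bile acids, had differences of 0.13 and 0.01 (limma adjusted p = 0.565 and 0.980), both of which turned negative after quantile normalization and under hybridisation-control scaling.

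Promoter windows from RefSeq (GRCm38.p6, 300 bases around a start) were found for 29 of the 35 members, with none for Slc27a5, Crat, Acaa2, Hsd17b4, Decr1 and Vnn1. They were searched on both strands for TGACNNNGC, the core of the antioxidant response element to which NRF2 binds, and for AGGNCA repeated on the same strand after 1 base of any kind, a direct repeat of the sort to which PPARalpha and its partner RXR bind. The first stood in the windows of 3 member genes, Ehhadh, Fabp1 and Scp2, beside 12.4% of all windows of this length. The second stood in that of Fabp1 alone, beside 0.381% of all windows. The windows of Cd36, the one member called, and of Bdh1, the largest difference downward, held neither. A match is a string of letters and not a measured binding site, and the arrays do not bear on binding. The 250 bases before the start are shown for Fabp1, whose window held both motifs, and for Cd36 and Bdh1, the members with the largest difference upward and downward, 5′ to 3′ on the gene's strand, with matched letters in capitals. They lie at chr6:71199629-71199878 on the plus strand for Fabp1, chr5:17835897-17836146 on the minus strand for Cd36, where the start is one inside the annotated gene, and chr16:31422047-31422296 on the plus strand for Bdh1, at the first of its starts. In Fabp1 the repeat, which reads on the minus strand, covers positions -67 to -55 and the antioxidant core positions -9 to -1, counted from the base before the start.
Fabp1: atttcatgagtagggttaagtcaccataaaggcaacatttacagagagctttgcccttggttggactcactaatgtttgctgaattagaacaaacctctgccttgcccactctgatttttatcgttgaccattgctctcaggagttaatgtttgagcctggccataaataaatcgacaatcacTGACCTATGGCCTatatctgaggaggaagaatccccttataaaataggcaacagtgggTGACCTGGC
Cd36: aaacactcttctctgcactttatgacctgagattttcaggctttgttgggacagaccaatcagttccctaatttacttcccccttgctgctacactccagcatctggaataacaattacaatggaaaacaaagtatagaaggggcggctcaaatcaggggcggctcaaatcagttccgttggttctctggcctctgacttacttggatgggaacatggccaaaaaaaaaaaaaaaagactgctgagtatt
Bdh1: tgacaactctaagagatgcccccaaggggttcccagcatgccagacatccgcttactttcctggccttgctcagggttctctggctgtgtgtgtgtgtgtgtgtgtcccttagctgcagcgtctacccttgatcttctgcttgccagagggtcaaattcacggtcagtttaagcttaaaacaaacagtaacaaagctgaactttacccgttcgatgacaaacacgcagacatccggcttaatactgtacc

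**Figure D2:**
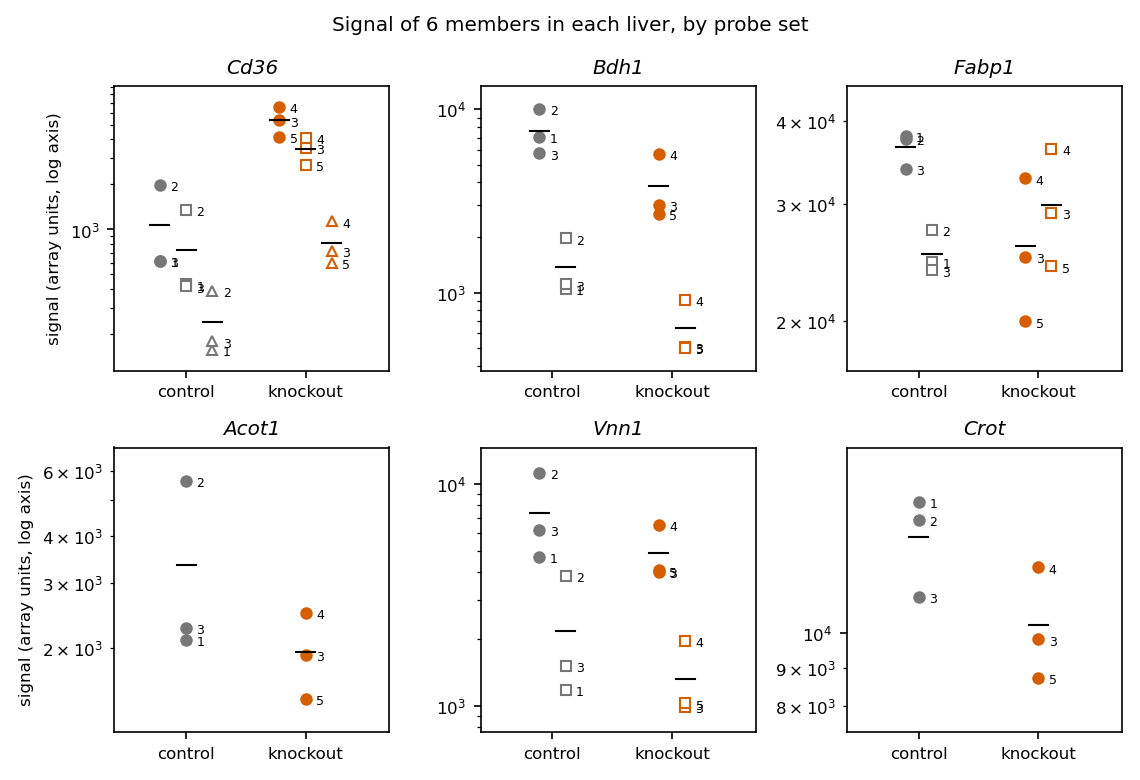
Signal in each liver (log axis, array units) of Cd36, Bdh1, Fabp1, Acot1, Vnn1 and Crot, for controls 1 to 3 (grey) and knockouts 3 to 5 (orange). Filled circles are the chosen probe set, open symbols the others, numbers the mouse and black lines group means: all 3 probe sets of Cd36 are higher in the knockouts, both of Bdh1 are lower, and the 2 of Fabp1 point in opposite directions.

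The carnitine shuttle carries long acyl chains into the mitochondrion, and 0 of its 4 members passed (0 at an unadjusted limma p under 0.05). Cpt1a, the outer membrane transferase that sets the rate of entry, had signals of 6439.9, 6651.2 and 7044.3 in the knockouts and 8226.2, 8398.3 and 6018.5 in the controls. All 3 knockouts lay between control 3 and the other controls, so the groups overlapped (difference -0.15, 95% interval -0.46 to 0.15, limma adjusted p = 0.638). Its 2 other probe sets differed by -0.26 and -0.24. Cpt2, the inner membrane transferase, and Slc25a20, the carnitine-acylcarnitine carrier, differed by -0.14 and -0.18 (adjusted p = 0.713 and 0.716). A second probe set of Slc25a20 differed by 0.19. Crat, which makes short-chain acylcarnitines, differed by 0.08 (adjusted p = 0.873), and by -0.11 under hybridisation-control scaling. The 2 other Crat probe sets pointed in opposite directions, at 0.32 and, in a much dimmer one, -0.37 (limma adjusted p = 0.414 and 0.792 over all probe sets).

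In the mitochondrial matrix 0 of 13 members passed, 2 had an unadjusted limma p under 0.05, and the median difference was -0.08. The members lay between -0.33 and 0.09. Of the 13, 11 were below the controls, a count that was 8 after median centring and 13 under quantile normalization or hybridisation-control scaling, and 7 without control 2. The 4 acyl-CoA dehydrogenases, which open each cycle for chains of falling length, were Acadvl at -0.03, Acadl at -0.09, Acadm at 0.09 and Acads at -0.25. Acads, for the shortest chains, had 2569.5, 2708.3 and 2476.7 in the knockouts and 2973.5, 3005.5 and 3260.8 in the controls, without overlap (standard error 0.09, limma adjusted p = 0.228). Acadm, the medium-chain enzyme, overlapped fully, at 17306.2, 17962.1 and 14638.7 against 15082.3, 18112.0 and 13795.4.

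The trifunctional protein, made of the Hadha and Hadhb subunits, carries out the later steps on long chains. Hadha had 7161.5, 7215.7 and 6361.1 in the knockouts and 7275.9, 8964.7 and 7752.1 in the controls. The groups did not overlap, but knockout 4 and control 1 were nearly equal (difference -0.21, limma adjusted p = 0.408). Hadhb, its partner, differed by -0.04, and Hadh, the dehydrogenase for shorter chains, by -0.05. Acaa2, the thiolase that releases acetyl-CoA, had the largest difference of the matrix enzymes at -0.33 (limma adjusted p = 0.255), with 12824.4, 16279.5 and 12575.1 against 17700.1, 18630.1 and 15668.5. Its 2 other probe sets, however, differed by -0.11 and 0.09. The electron carriers Etfa, Etfb and Etfdh, which pass electrons from the dehydrogenases to ubiquinone, differed by -0.08, 0.09 and -0.16. Decr1 and Eci1, which prepare unsaturated chains for the cycle, differed by -0.11 and -0.01 in their chosen probe sets, and a dimmer probe set of Decr1 by -0.57 (limma adjusted p = 0.247 over all probe sets).

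Of the peroxisomal members 0 of 8 passed, 2 had an unadjusted limma p under 0.05, and the median was -0.07. They lay between -0.39 and 0.10. Below the controls were 6, a count that was 4 after median centring and 8 under quantile normalization or hybridisation-control scaling. Crot, which makes octanoylcarnitine from chains shortened in the peroxisome, had the largest difference at -0.39 (standard error 0.15, limma adjusted p = 0.267). Its signals were 9821.4, 12243.9 and 8724.5 in the knockouts and 14954.5, 14140.5 and 11171.2 in the controls, and knockout 4 lay above control 3. Decr2, a reductase for unsaturated chains, differed by -0.25 (adjusted p = 0.312), with 4761.6, 4548.1 and 5313.6 against 6151.8, 6189.0 and 5132.9. Ehhadh and Hsd17b4, the bifunctional enzymes for straight and branched chains, differed by -0.05 and 0.10. Eci2, an isomerase, and Scp2, a thiolase and sterol carrier, differed by -0.01 and 0.05. For Scp2 the 3 other probe sets gave 0.22, -0.17 and -0.45.

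The peroxisomal thiolases Acaa1a and Acaa1b are near copies and share probe sets. Acaa1b differed by -0.23 and Acaa1a by -0.09 (limma adjusted p = 0.521 and 0.850) in the chosen probe sets, annotated to each alone. Another probe set annotated to Acaa1a alone differed by 0.09 (limma adjusted p = 0.895 over all probe sets). Of the 2 probe sets annotated to both, 1 differed by -0.10 and the other by -0.47 (limma adjusted p = 0.784 and 0.217 over all probe sets). The share of each copy in these signals is uncertain.

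Bdh1, the mitochondrial dehydrogenase that turns acetoacetate into 3-hydroxybutyrate at the end of ketone body synthesis, was the member with the largest difference downward. Its signal was 3014.4, 5709.2 and 2701.6 in knockouts 3, 4 and 5, and 7078.7, 10030.8 and 5750.8 in controls 1, 2 and 3. The groups did not overlap, but knockout 4 lay just under control 3. The mean in the knockouts, 3808 ± 1654, was 49.98% of the 7620 ± 2191 in the controls (SD, n = 3 each), and the log2 means differed by -1.04 (95% interval -1.69 to -0.39). It did not pass over all genes (limma adjusted p = 0.122). The second probe set gave 506.8, 913.9 and 499.9 against 1046.4, 1977.9 and 1109.7, a difference of -1.08 (adjusted p = 0.121 over all probe sets), and knockout 4 and control 2 were again highest. Without knockout 4 the difference was -1.37 and passed (adjusted p = 0.0273), as it did under hybridisation-control scaling (-1.24, adjusted p = 0.0496). Without any 1 other array it was -1.22 to -0.82 and did not.

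Of 4 other genes of ketone body metabolism that were measured 0 passed (0 at an unadjusted limma p under 0.05), and their median was -0.14. Slc16a1, a monocarboxylate carrier of the cell membrane that moves ketone bodies, differed by -0.37 (standard error 0.18, adjusted p = 0.365), and Bdh2, a cytosolic dehydrogenase, by -0.19 (adjusted p = 0.635). Without knockout 5 these were -0.17 and -0.079, and Bdh2 was at -0.35 without knockout 4. Set side by side, the medians were -0.08 for 13 mitochondrial matrix members, -0.07 for 8 peroxisomal members and -0.19 for Bdh1 with the 4 other ketone body genes. Bdh1 alone was at -1.04. The differences between these steps were not tested, and the mitochondrial and peroxisomal medians both moved with scaling, to -0.03 and -0.02 after median centring, -0.17 and -0.14 after quantile normalization, and -0.27 and -0.26 under hybridisation-control scaling. Single arrays moved them as well: the mitochondrial median was -0.14 without knockout 4 and -0.03 without knockout 5 or control 2, and the peroxisomal median was -0.20 without control 1 and -0.02 without knockout 5 or control 2.

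Of the 2 acyl-CoA thioesterases, Vnn1 and Pdk4, genes that PPARalpha is known to raise, 0 of 4 passed (0 at an unadjusted limma p under 0.05), and all lay below the controls under each scaling tried. Acot1, a cytosolic thioesterase, had 1918.1, 2487.0 and 1455.0 in the knockouts and 2099.5, 5638.5 and 2267.1 in the controls. Control 2 stood far above the other controls, and the difference was -0.65 with it (adjusted p = 0.429) and -0.19 without it. Vnn1, a pantetheinase, had 4009, 6543.3 and 4069.6 against 4680.5, 11219.6 and 6198.8, with control 2 again highest. Its difference was -0.53 (adjusted p = 0.453), and -0.18 without control 2. Acot2, the mitochondrial thioesterase, differed by -0.30 (adjusted p = 0.628), or -0.10 without control 2. A probe set shared by Acot1 and Acot2 differed by -0.68 (adjusted p = 0.483 over all probe sets). The genes are near copies, and how far each probe set reads the other was not tested. Pdk4, the kinase that spares glucose by shutting down pyruvate dehydrogenase in fasting, gave 153.6, 153.0 and 152.9 against 154.2, 155.0 and 217.1. Its groups did not overlap, but by less than 1 unit of signal (difference -0.16, adjusted p = 0.771).

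The same mice stood high or low for many members. Among the knockouts, knockout 4 was highest for 27 of 34 members and knockout 5 lowest for 26, while over all genes tested they were highest in 29.4% and lowest in 29.8%. Among the controls, control 2 was highest for 22 and control 3 lowest for 23, against 30.5% and 28.6% of all genes. Against the mean of the controls, the median member stood at 0.08 in knockout 4, at -0.16 in knockout 3 and at -0.17 in knockout 5. In controls 1, 2 and 3 it stood at -0.04, 0.14 and -0.15. The median member thus spanned -0.17 to 0.08 among knockouts and -0.15 to 0.14 among controls, ranges that overlap. RNA quality, read as the 3′ over 5′ signal of actin, was least even in control 2 at 1.90 and in knockout 5 at 1.85, and 1.54 to 1.60 in the other 4 mice. The same ratio for Gapdh did not set these mice apart in one direction, at 0.758 in control 2, the lowest, and 0.786 in knockout 5, the highest. Control 2 also had the largest sum of bile duct markers, 1287 over the 4 of 5 measured. The lowest control sum was 293.9, and the knockouts summed to 251.5 to 500.4. Krt19 was at 501.9 in control 2 against 8.3 and 17.4 in controls 1 and 3, and Krt7 at 219.7 against 67.9 and 86.2. Epcam and Sox9 did not set control 2 apart, at 425.4 and 140.3 there and 477.8 and 143.9 in control 3. The 3 of these markers that were tested all lay below the controls, with a median of -0.44, and 0 passed (0 at an unadjusted limma p under 0.05). The part of RNA quality or bile duct cells in the pattern was not tested.

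**Figure D3:**
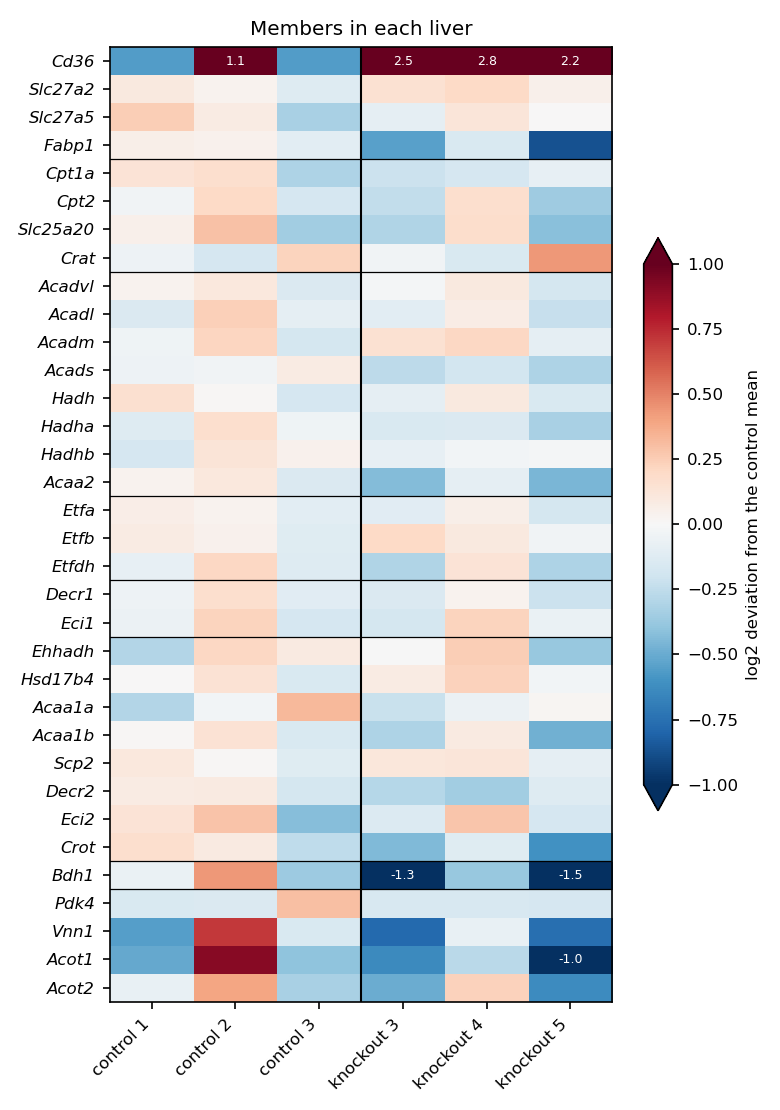
Log2 deviation of each member in each liver from the mean of the 3 controls (colour, held at -1 and 1, with larger values printed), with members ordered by role and separated by lines. Control 2 and knockout 4 are the warm columns of their groups for most mitochondrial and peroxisomal members, and Cd36 and Bdh1 are the rows that differ most between groups.

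Genes around the pathway were read from 5 further lists. Of 21 other mitochondrial genes 19 were tested and 0 passed (4 at an unadjusted limma p under 0.05), while 14 had higher means than the controls (median 0.13). The largest differences were those of Acacb, the carboxylase whose product inhibits CPT1, at -1.12 (347.9, 150.7 and 376.7 against 909.4, 406.4 and 611.2, adjusted p = 0.189) and of Acot9, a mitochondrial thioesterase, at 0.58 (adjusted p = 0.167). Acacb was at -0.73 without knockout 4 and at -1.40 without control 2. Of 18 other peroxisomal genes 16 were tested, of which 1 rose and 0 fell. Acox2, the oxidase for bile acid intermediates and branched chains, rose 1.52-fold, with 15408.2, 16389.7 and 13638.5 against 10796.2, 8520.5 and 10650.7 and no overlap (limma adjusted p = 0.0443). That call was lost without any 1 array (adjusted p = 0.0608 to 0.158), while the difference stayed between 0.49 and 0.68. It was also lost without a filter (0.0754), after quantile normalization (0.0671) or median centring (0.0807), under hybridisation-control scaling (0.0794), without the variance trend (0.143) and, by little, in the mean over probe sets (0.0523).

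Of 16 peroxisome assembly genes 13 were tested and 0 passed (4 at an unadjusted limma p under 0.05). Pex14, part of the import machinery of the peroxisomal membrane, had 2461.5, 2589.1 and 2429.2 against 1873.8, 1951.0 and 1744.9 (difference 0.42, adjusted p = 0.0580), and Pex6, which recycles the import receptor, differed by -0.32 (adjusted p = 0.189), and by -0.52 under hybridisation-control scaling, where it passed (adjusted p = 0.0394). Among 20 regulators and targets of PPARalpha 18 were tested and 0 passed (2 at an unadjusted limma p under 0.05), and 13 lay below the controls. Fgf21, a hepatic hormone of fasting, had 1954.4, 482.6 and 777.6 against 324.9, 300.0 and 834.5, with knockout 3 far above the rest (difference 1.03, adjusted p = 0.388, and 0.48 without knockout 3). Plin2, which coats lipid droplets, had 7619.2, 8140.4 and 6607.7 against 13535.3, 11953.7 and 9491 without overlap (difference -0.63, adjusted p = 0.0659), and passed without control 3 (-0.77, adjusted p = 0.0331), after quantile normalization (-0.72, adjusted p = 0.0174) and under hybridisation-control scaling (-0.83, adjusted p = 0.0178).

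Of 17 other genes of uptake, activation and lipolysis 15 were tested, of which 0 rose and 1 fell. Acsl3, a long-chain acyl-CoA synthetase of the endoplasmic reticulum and lipid droplets, fell 2.20-fold, from 1079, 852.5 and 653.8 in the controls to 332.5, 367.9 and 431.2 in the knockouts (limma adjusted p = 0.0236). Every knockout lay below every control. The call was lost without knockouts 3 and 4 and without controls 1 and 2 (adjusted p = 0.0905, 0.0633, 0.0630 and 0.0759), at differences of -1.13 to -0.96, and it held without knockout 5 and control 3. It was also lost without the variance trend (0.0751) and with probe sets that can match several transcripts left out (-1.05, adjusted p = 0.120).

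**Figure D4:**
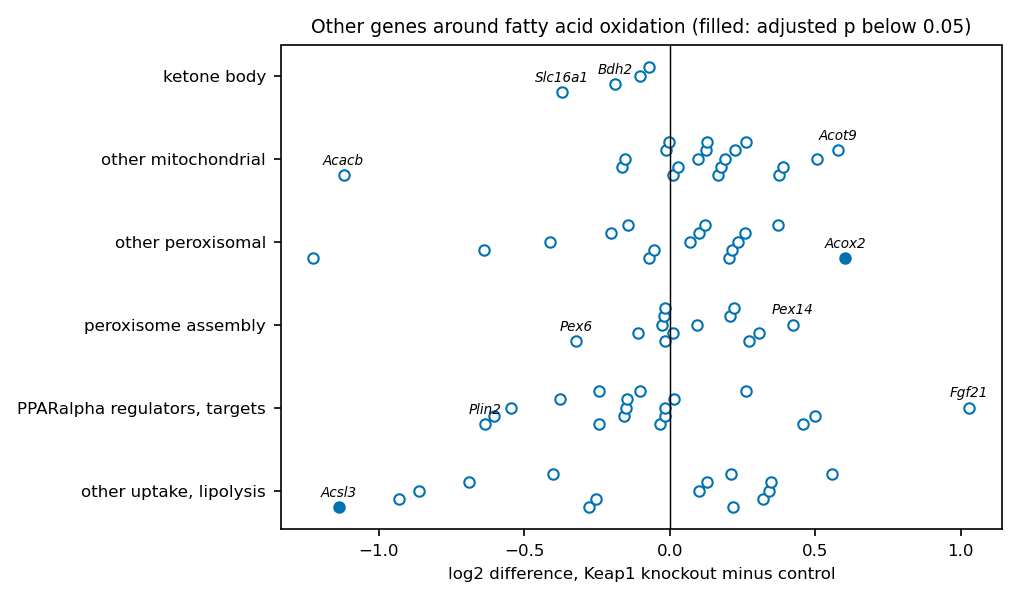
Log2 difference between Keap1 knockout and control livers for the tested genes of 6 lists around fatty acid oxidation, with 1 point per gene, filled where the limma adjusted p was below 0.05. Acox2 at 0.60 and Acsl3 at -1.14 are the filled points; the vertical spread within a list only separates the points.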

How the data were processed

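The authors deposited linear intensity, 1 value per probe set and array, from biotin-labelled cRNA of total liver RNA, per the labels' protocols. No label or header names the summarising software. The mean of each array without its lowest and highest 2% was 500.0, so the deposited values were scaled to a shared target, and a change in total RNA would not be seen. Of 45101 probe sets 64 were controls, and of the rest 34945 had 1 gene symbol, 932 several and 9160 none in the platform annotation. The labels give 1 mouse per array, so p-values rest on the spread between these mice. The fit draws the spread of each gene toward a trend over all genes tested.

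Values were taken as log2(signal + 16), which understates the change of dim genes; 11.9% to 16.5% of an array's values lay under 16. Probe sets with a mean at or above the 40th percentile (27022) entered, 1 per gene (13027 genes). Knockouts were set against controls in limma 3.58.1 under R 4.3.3 (two-sided moderated test, eBayes with trend, Benjamini-Hochberg over all genes tested, threshold 0.05); "rose" and "fell" are used only past it. Further probe sets were fitted over all 27022. The steps were run on simulated data with known changes. The pass mark there covered the recovery of large changes and the share of false calls, not the recovery of small changes. Precision is limited by the number of arrays, and an exact test of 3 against 3 cannot go below p = 0.1. All members, and of each list the genes called or else the 2 with the largest difference, are named. The members and lists were chosen with earlier results of these data known. Alternatives were the filter, the offset, 3 scalings, the variance trend, the choice of probe set and leaving out each array, with the probe sets kept as chosen over 6 arrays.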

Additional observations from a re-analysis of the deposited data

How the results depend on the processing

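No paired analysis was possible because the replicate numbers in the labels share only the number 3 between the groups. The count of members called, 1 of 34, was 2 after quantile normalization, 3 under hybridisation-control scaling and 0 without the variance trend, where Cd36 was at 2.51 (adjusted p = 0.0830; 1821 of all genes then had an unadjusted limma p under 0.05); it was 0 to 1 without 1 array. Hybridisation-control scaling moved the median to -0.29 for all members, -0.27 for mitochondrial and -0.26 for peroxisomal members. Calls over all genes, 258 (135 higher, 123 lower), fell to 77 without the variance trend and numbered 477 under hybridisation-control scaling, 86 of them higher and 391 lower; they were 132 higher and 89 lower after median centring, and 92 to 171 without 1 array. Other peroxisomal genes called were 0 without a filter, after median centring and without the trend, 2 under hybridisation-control scaling and 0 without any 1 array. The gene called was not always Acox2: it was Amacr after quantile normalization (-0.47, adjusted p = 0.0176), Amacr and Nudt7 under hybridisation-control scaling (-0.61 and -0.84), and Nudt7 in the mean over probe sets (-0.72) and without probe sets that can match several transcripts (-1.40), all lower and named after their values were seen. Peroxisome assembly gave 1 under hybridisation-control scaling; PPARalpha regulators and targets gave 1 after that and after quantile normalization, and 0 to 1 without 1 array. Other uptake genes gave 2 after median centring (Acsl3, and Pnpla2 at 0.61), 3 under hybridisation-control scaling (Acsl3, Fabp5 at -1.06 and Mgll at -0.89), 0 without the trend or without probe sets that can match several transcripts, and 0 to 1 without 1 array, where the 1 without knockout 4 was Pnpla2 (0.67, adjusted p = 0.0401).

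Of 34 members 17 kept their direction under all 16 alternatives (15 for a member that an alternative left untested). The other 17 turned in at least 1, and each of these was within 0.33 of 0. After quantile normalization Slc27a2 was at -0.025, Slc27a5 at -0.096, Acadm at -0.010, Etfb at -0.055, Hsd17b4 at -0.0064 and Scp2 at -0.14. Under hybridisation-control scaling these were at -0.063, -0.18, -0.11, -0.11, -0.10 and -0.15, and Crat was at -0.11. After median centring Acadvl was at 0.016, Hadhb at 0.0045, Eci1 at 0.044, Ehhadh at 0.0029 and Eci2 at 0.039. In the mean over probe sets Slc25a20 was at 0.0025, Hsd17b4 at -0.018, Acaa1a at 0.00026 and Scp2 at -0.089. Without probe sets that can match several transcripts Hadh was at 0.025 and Acaa2 at 0.089. Without 1 array the lowest and highest values were -0.15 and 0.13 for Slc27a5, -0.094 and 0.20 for Crat, -0.11 and 0.038 for Acadvl, -0.17 and 0.031 for Acadl, -0.13 and 0.029 for Hadh, -0.13 and 0.018 for Hadhb, -0.12 and 0.11 for Eci1, -0.19 and 0.12 for Ehhadh, -0.23 and 0.076 for Acaa1a, -0.0099 and 0.12 for Scp2, and -0.22 and 0.13 for Eci2. The causes were not tested.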
